A study of Mus musculus with 4 samples.

Results

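Transcripts of 8 genes of the TNF receptor and TNF ligand superfamilies that serve as costimulators of lymphocytes were followed through the leukocytes of CT26 tumours, out of 32285 genes in the count matrices. They were chosen by name: 4 receptor genes, Tnfrsf4 (OX40), Tnfrsf9 (4-1BB), Tnfrsf18 (GITR) and Cd27, and the 4 genes of their ligands, Tnfsf4 (OX40 ligand), Tnfsf9 (4-1BB ligand), Tnfsf18 (GITR ligand) and Cd70. All 8 symbols were found in the matrices. CT26, a colon carcinoma line, was derived from the Balb/c strain and forms tumours in it. 2 libraries came from tumours of mice treated over 8 days with liproxstatin-1, which blocks ferroptosis, a death by lipid peroxidation, and 2 came from tumours of control mice. All mice were Balb/c, 9 weeks old and bore the same tumour, and the cells of all 4 libraries had been enriched with magnetic beads for CD45, a surface protein of leukocytes. What the control mice received is not given in the sources used here, nor is whether the 2 replicates of a group were separate animals, so the p-values rest on library-to-library spread that may be purely technical.

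OX40, 4-1BB, GITR and CD27 are surface receptors that have no enzyme activity of their own. When bound by their ligands they recruit TRAF adaptor proteins, which switch on the NF-kappaB transcription factors and favour division and survival of the lymphocyte. CD27 is already present on resting T cells, whereas OX40 and 4-1BB are induced after antigen contact, and OX40 and GITR are also known from mouse regulatory T cells, the suppressive CD4 lineage defined by the transcription factor Foxp3. The ligands are made mainly by activated dendritic cells, macrophages and B cells, and in part by activated T and NK cells.

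All of the genes but Tnfrsf9 and Cd27 lie in neighbouring pairs. In the GRCm38 assembly, Tnfrsf4 (ENSMUSG00000029075) spans chr4:156013843-156016612 and Tnfrsf18 (ENSMUSG00000041954) spans chr4:156026164-156028895, both on the plus strand with 9551 bases between them. Tnfrsf9 (ENSMUSG00000028965) is on the same chromosome at chr4:150914562-150946102, plus strand. Tnfsf4 (chr1:161395409-161418410) and Tnfsf18 (chr1:161494655-161505290), both plus, are 76244 bases apart, and Tnfsf9 (chr17:57105325-57107757, plus) and Cd70 (chr17:57145997-57149777, minus) are 38239 bases apart. Cd27 is at chr6:125232622-125237010 on the minus strand. The annotation places Camta1 over Tnfrsf9, Gm16008 over Tnfrsf18, Vamp1 over Cd27 and Gm11110 over Tnfsf9, each on the opposite strand. Mir8113 also overlaps Cd27, on the same strand. Whether the counting used strand is not given in the sources used here, so UMIs of these 4 genes could include some of their partners.

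RefSeq promoter windows of GRCm38.p6, from 250 bases before to 50 bases after an annotated start, were available for 5 of the 8 genes. Those of Tnfrsf4, Tnfrsf18 and the second of 2 starts of Tnfrsf9 are shown, because these 3 receptor genes exceeded 1000 CPM in regulatory T cells of every library. Of the Tnfrsf9 starts, the second is printed because it held the motif matches described here, a choice made after the search. The windows are chr4:156013445-156013744, chr4:156026072-156026371 and chr4:150927749-150928048, all on the plus strand, and capitals mark matches to the NF-kappaB motif and to the AP-1 motif TGANTCA. The Tnfrsf4 window ends before the gene span given earlier begins, and the Tnfrsf9 window lies inside its gene span. The windows thus describe the RefSeq starts only.
Tnfrsf4: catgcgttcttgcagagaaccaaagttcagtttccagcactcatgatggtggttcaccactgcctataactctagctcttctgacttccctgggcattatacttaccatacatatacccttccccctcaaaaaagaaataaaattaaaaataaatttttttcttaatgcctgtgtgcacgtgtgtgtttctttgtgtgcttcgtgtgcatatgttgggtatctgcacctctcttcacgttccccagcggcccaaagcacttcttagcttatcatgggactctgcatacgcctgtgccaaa
Tnfrsf18: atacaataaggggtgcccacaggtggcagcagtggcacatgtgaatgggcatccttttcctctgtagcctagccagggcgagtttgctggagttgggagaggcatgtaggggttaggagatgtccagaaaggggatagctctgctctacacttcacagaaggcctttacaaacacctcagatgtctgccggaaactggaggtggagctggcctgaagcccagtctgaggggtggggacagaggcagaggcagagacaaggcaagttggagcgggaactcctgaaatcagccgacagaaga
Tnfrsf9: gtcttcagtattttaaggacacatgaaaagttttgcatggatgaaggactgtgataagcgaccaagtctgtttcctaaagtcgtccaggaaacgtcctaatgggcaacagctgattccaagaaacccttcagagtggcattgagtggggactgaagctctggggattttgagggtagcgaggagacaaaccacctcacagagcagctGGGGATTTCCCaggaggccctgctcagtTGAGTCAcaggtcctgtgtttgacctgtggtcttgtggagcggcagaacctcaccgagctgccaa
Both strands were searched for NF-kappaB, AP-1 (TGANTCA), NFAT (GGAAAA), forkhead (TGTTTAC) and Runx (TGTGGT) motifs. The Tnfrsf9 window held an NF-kappaB match at bases 208 to 217 overlapped by another at bases 209 to 218, an AP-1 match at bases 236 to 242 and a Runx match at bases 261 to 266. Over 32851 promoters, 8.46% held the NF-kappaB motif, 7.81% the AP-1 motif and 16.8% the Runx motif. The window of the first Tnfrsf9 start, not printed, held only an NFAT match, at bases 113 to 118 on the other strand. The Tnfrsf18 window held an NFAT match at bases 55 to 60 on the other strand, as 23.4% of promoters do on either strand, and the Tnfrsf4 window held none of the 5. The forkhead motif, found in 3.65% of promoters, was in none of the 3. A match describes letters only and says nothing of binding.

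There were 8659 and 9299 barcodes in the 2 liproxstatin libraries, against 4138 and 6996 in the 2 control libraries. UMIs (unique molecular identifiers, 1 per captured transcript) totalled 168597163 and 165165389 under liproxstatin, and 83129874 and 162158147 in control. Between 4 and 22 barcodes were shared by any pair of libraries. After filtering, 25730 cells remained, and 23147 of them (90.0%) fell into 1 of 15 immune classes by marker genes that did not include the 8 genes. Every regulatory T cell had a Foxp3 UMI by the gate, and Ikzf2 and Il2ra, which the gate did not use, were found in 95.8% to 97.9% and 72.3% to 84.3% of them, against 32.1% to 45.7% and 23.7% to 40% of conventional CD4 T cells. Conventional CD4 T cells were gated by Cd4 without Foxp3, so regulatory T cells in which no Foxp3 UMI was captured can be among them. CD8 T cells were the most numerous lymphocytes, with 878 and 1032 cells in the liproxstatin libraries and 286 and 725 in the control libraries. Regulatory T cells numbered 134 and 148 in the liproxstatin libraries and 48 and 71 in the control libraries. The T cells with no deciding marker or conflicting ones, here called other T cells, included cells with Foxp3, Cd4 or Cd8a.

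All 4 receptor genes had their highest level in regulatory T cells, in every library. All levels are given as CPM, counts scaled to a common total, which relate a gene's UMIs to the UMI total of its class in that library. Tnfrsf4 reached 1873 and 1585 CPM in regulatory T cells of liproxstatin replicates 1 and 2, and 1523 and 1381 CPM in those of control replicates 1 and 2. It had 684 and 748 CPM in conventional CD4 T cells of the liproxstatin libraries, and 492 and 689.8 CPM in those of the control libraries. Behind them stood other T cells (mean of 4 libraries 334 ± 104 CPM, SD), CD8 T cells (183 ± 39.2 CPM) and migratory dendritic cells (43.2 ± 3.47 CPM). Each of these 5 classes lay above the next in all libraries, and every further class averaged 3.08 CPM or less. Gamma-delta T cells, a class of 13 to 37 cells per library, had no Tnfrsf4 UMI, which allows up to 8.28 to 20.2 CPM at 3 UMIs per library.

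Tnfrsf9 had 1464 and 1158 CPM in regulatory T cells of the liproxstatin libraries, and 1046 and 1120 CPM in those of the control libraries. All 4 values were above those of every other class. The next classes overlapped from neighbour to neighbour: CD8 T cells averaged 521 ± 14 CPM (SD, n = 4), other T cells 468 ± 76.6, conventional CD4 T cells 427 ± 50.7, NK cells 389 ± 92.5 and migratory dendritic cells 282 ± 109 CPM. Tnfrsf9 had 31.7 ± 4.44 CPM in monocytes and 11.7 CPM in macrophages. CD8 T cells held 51.4% and 55.1% of all its UMIs in the gated cells of the liproxstatin libraries and 51.6% and 51.3% in those of the control libraries. They were far more numerous than regulatory T cells and also deeper, with medians of 10845 to 14608 against 4681 to 6882 UMIs per cell.

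Tnfrsf18 had 1345 and 1283 CPM in regulatory T cells of the liproxstatin libraries, and 1283 and 1375 CPM in those of the control libraries, with no separation of the groups. Conventional CD4 T cells (716 ± 121 CPM, SD, n = 4), other T cells (391.6 ± 51.6) and CD8 T cells (288 ± 33.1) followed, each above the next in all libraries. Gamma-delta T cells (163 ± 30.4) and NK cells (161 ± 28.2) overlapped. Type 1 conventional dendritic cells, which present antigen of dead cells to CD8 T cells, had 33.6 ± 9.05 CPM, whereas Tnfrsf4 averaged 2.59 CPM there.

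Cd27 differed less between the T cell classes. Regulatory T cells had 361 and 282 CPM in the liproxstatin libraries, and 462 and 254 CPM in the control libraries. CD8 T cells (192 ± 17.9 CPM, SD, n = 4) and other T cells (185 ± 20) overlapped, as did conventional CD4 T cells (141 ± 27.0) and gamma-delta T cells (128 ± 20.3), with NK cells lower at 74.7 ± 7.92 CPM in each library. CD8 T cells held 65.5% and 68.3% of its UMIs in the liproxstatin libraries and 55.7% and 67.1% in the control libraries.

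**Figure D1:**
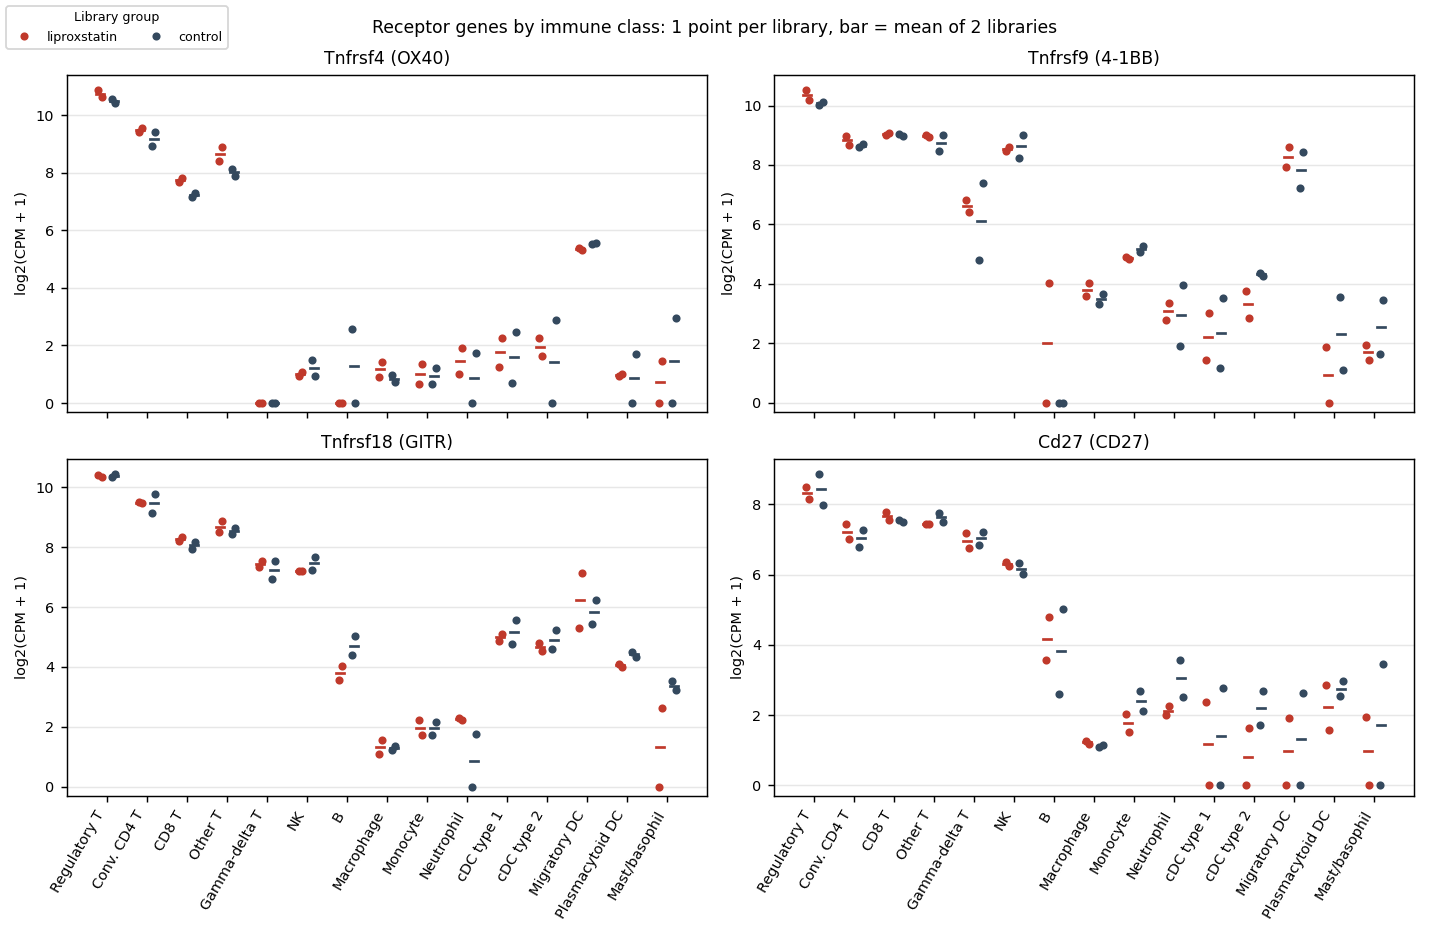
Levels of the 4 receptor genes by immune class, as log2(CPM + 1), with 1 point per library and a bar at the mean of the 2 libraries of a group (liproxstatin red, left; control dark, right). Regulatory T cells are highest for all 4 genes, and in NK cells Tnfrsf4 averages 1.2 CPM while Tnfrsf9 averages 389 CPM.

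The excess in regulatory T cells was tested against conventional CD4 T cells of the same libraries. All 4 receptor genes were higher in regulatory T cells, by edgeR's quasi-likelihood test with the library as a block and Benjamini-Hochberg adjustment over all 7034 genes tested, of which 12.2% passed an adjusted p of 0.05 and 4.9% did so upward. The log2 fold change was 1.33 ± 0.09 (SE) for Tnfrsf9 (adjusted p = 2.64e-10), 1.13 ± 0.10 for Tnfrsf4 (4.14e-08), 1.05 ± 0.16 for Cd27 (1.28e-04) and 0.74 ± 0.09 for Tnfrsf18 (1.86e-06). The rise held in 4 of 4 libraries for each. 6 of the 8 genes passed the low-count filter here. The ligand genes Tnfsf9 (-0.17 ± 0.40, adjusted p = 0.848) and Cd70 (-1.07 ± 0.44, adjusted p = 0.133) did not pass the test, and Tnfsf4 had no UMI in regulatory T cells of any library, which allows up to 3.08 to 7.18 CPM at 3 UMIs per library. Median depth was similar in the 2 classes, at 5244 and 4681 UMIs per regulatory T cell of the liproxstatin libraries and 6430.0 and 6882 of the control libraries, against 5862 and 4739 UMIs per conventional CD4 T cell of the liproxstatin libraries and 6989 and 6330.0 of the control libraries.

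Among the genes of the same families, Tnfrsf1b, the second receptor of TNF, was higher in regulatory T cells by 1.68 ± 0.16 (adjusted p = 1.01e-07, edgeR) and was the 1 of 7 tested other TNF receptor genes to pass. Of 8 tested other ligand genes, 1 was higher and 5 were lower in regulatory T cells, with a median log2 fold change of -2.64 against -0.01 over all genes. The lower ones with the smallest p were Tnfsf8, the CD30 ligand (-6.06 ± 0.30), Cd40lg, the T cell signal to CD40 (-3.72 ± 0.27), Tnfsf11, or RANKL (-3.36 ± 0.29), and Fasl, a death ligand (-3.18 ± 0.32). Of 25 genes of TRAF and NF-kappaB signalling, 3 were higher and 2 lower, where 12.2% of all genes passed and 4.9% did so upward. Traf1, an adaptor that these receptors use, was higher by 0.68 ± 0.12 and the NF-kappaB inhibitor gene Nfkbia by 0.60 ± 0.10, while the survival gene Mcl1 fell by 0.46 ± 0.11 on the log2 scale.

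CD8 T cells were parted by a UMI of Pdcd1, the gene of the inhibitory receptor PD-1, which antigen-stimulated T cells carry. Tnfrsf4 had 213 and 236 CPM in CD8 T cells with a Pdcd1 UMI from the liproxstatin libraries and 152 and 163 CPM from the control libraries, against 62.1 and 37.9 CPM in cells without one from the liproxstatin libraries and 44.4 and 77.5 CPM from the control libraries. The lowest of the Pdcd1-positive values was above the highest of the others. The log2 fold change was 1.68 ± 0.20 (adjusted p = 2.58e-04, edgeR quasi-likelihood within libraries), in a comparison where 20.7% of 9982 genes passed and 10.5% did so upward.

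Tnfrsf9 had 535 and 554 CPM in Pdcd1-positive CD8 T cells of the liproxstatin libraries and 563 and 532 CPM in those of the control libraries, against 130.3 and 252 CPM in Pdcd1-negative cells of the liproxstatin libraries and 83.8 and 179 CPM in those of the control libraries. There were 814 and 952 positive cells in the liproxstatin libraries and 249 and 639 in the control libraries. Negative cells were far fewer, at 64 and 80 in the liproxstatin libraries and 37 and 86 in the control libraries. On these numbers the positive Tnfrsf9 values stayed within a narrow band while the negative ones varied. The difference was 1.7 ± 0.31 (adjusted p = 0.0455), and it did not pass without the low-count filter, without control replicate 2 or without liproxstatin replicate 1 (adjusted p 0.0524 to 0.158). Tnfrsf18 differed by 0.34 ± 0.09 (adjusted p = 0.00590 in edgeR, 0.0556 in DESeq2, and 0.0838 and 0.0695 without liproxstatin replicates 1 and 2). Cd27 did not pass, at 0.05 ± 0.09 (adjusted p = 0.750), and neither did the ligand genes Tnfsf9 (0.50 ± 0.33) and Tnfsf4 (0.06 ± 0.50). Of the 8 genes, 7 passed the low-count filter.

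Cd70, whose product binds CD27, had 173 UMIs in Pdcd1-positive and 1 UMI in Pdcd1-negative CD8 T cells over the 4 libraries, a CPM ratio of 11 with a 95% counting interval of 1.95 to 437 (exact, counting error only). It passed edgeR's test (adjusted p = 0.0145) but not DESeq2 (0.0638), and not without control replicate 2 (0.117) or liproxstatin replicate 2 (0.0717). Cells with a Pdcd1 UMI were also deeper, with medians of 12352 and 11169 UMIs in the liproxstatin libraries and 15418 and 15289 in the control libraries, against 9012 and 7432 in the liproxstatin libraries and 8068 and 8739.5 in the control libraries for cells without one. They also carried a Mki67 or Top2a UMI, marks of the cell cycle, more often, at 58.2% and 57.1% of the liproxstatin and 64.3% and 65.9% of the control cells, against 25.0% and 26.2% of the liproxstatin and 43.2% and 31.4% of the control cells without Pdcd1. The part of depth and cycling in these differences was not tested.

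Most of the other receptors that passed were lower in the same comparison. Of 8 tested, 1 was higher and 4 were lower in Pdcd1-positive cells, among them Tnfrsf25, or DR3 (-3.05 ± 0.83), Tnfrsf26 (-2.21 ± 0.52) and Tnfrsf13b, or TACI (-2.20 ± 0.46), while Tnfrsf1b was higher by 0.65 ± 0.15. Of 11 tested other ligand genes, 2 were higher, Tnfsf13b (1.28 ± 0.36) and Tnfsf10 (0.56 ± 0.16), and 3 were lower. Among the lower ones Tnfsf8 was at -1.25 ± 0.17 (adjusted p = 1.04e-07, edgeR). Among the signalling genes Nfkb2, a precursor subunit of NF-kappaB, was higher by 0.89 ± 0.18 and the kinase gene Ikbkb lower, at -0.82 ± 0.15. In this list 3 of 25 were higher and 2 of 25 lower, while over all genes 20.7% passed and 10.5% did so upward. The signalling list as a whole thus did not stand out.

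**Figure D2:**
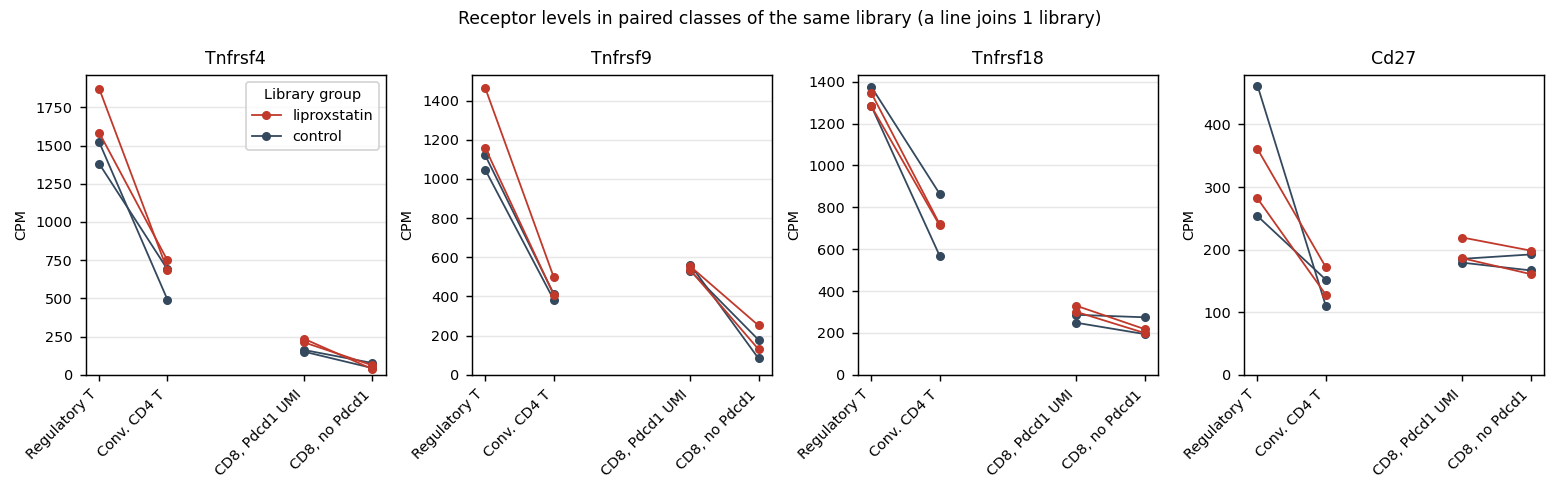
CPM of the 4 receptor genes in regulatory and conventional CD4 T cells (left pair) and in CD8 T cells with and without a Pdcd1 UMI (right pair), with a line joining the 2 classes of 1 library (liproxstatin red, control dark). All 4 genes are higher in regulatory T cells in every library, and the lines of Cd27 along the right pair do not share 1 direction.

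The receptors were also counted within single cells, after thinning each cell to 2000 UMIs so that depth did not set the count. At least 3 of the 4 receptor genes had a UMI in 81.1% and 73.1% of regulatory T cells of the liproxstatin libraries and 84.8% and 74.6% of those of the control libraries. In conventional CD4 T cells the share was 31.3% and 26.7% in the liproxstatin libraries and 18.4% and 30.1% in the control libraries. The regulatory T cell shares lay above the others in each library.

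In Pdcd1-positive CD8 T cells the share with at least 3 receptor genes was 23.6% and 22.8% in the liproxstatin libraries and 18.1% and 18.3% in the control libraries. In Pdcd1-negative cells it was 4.84% and 6.76% in the liproxstatin libraries and 2.70% and 8.43% in the control libraries. Macrophages, a class that should lack these receptors apart from Tnfrsf9, gave 0.0287% and 0% in the liproxstatin libraries and 0% and 0% in the control libraries, which was taken as the background level. Before thinning, the macrophage share was 0.115% to 0.477% at median depths of 22825 to 31781 UMIs, and the regulatory T cell share was 90.1% to 100% at 4681 to 6882 UMIs. In NK cells at most 1.71% of thinned cells had 3 receptor genes.

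**Figure D3:**
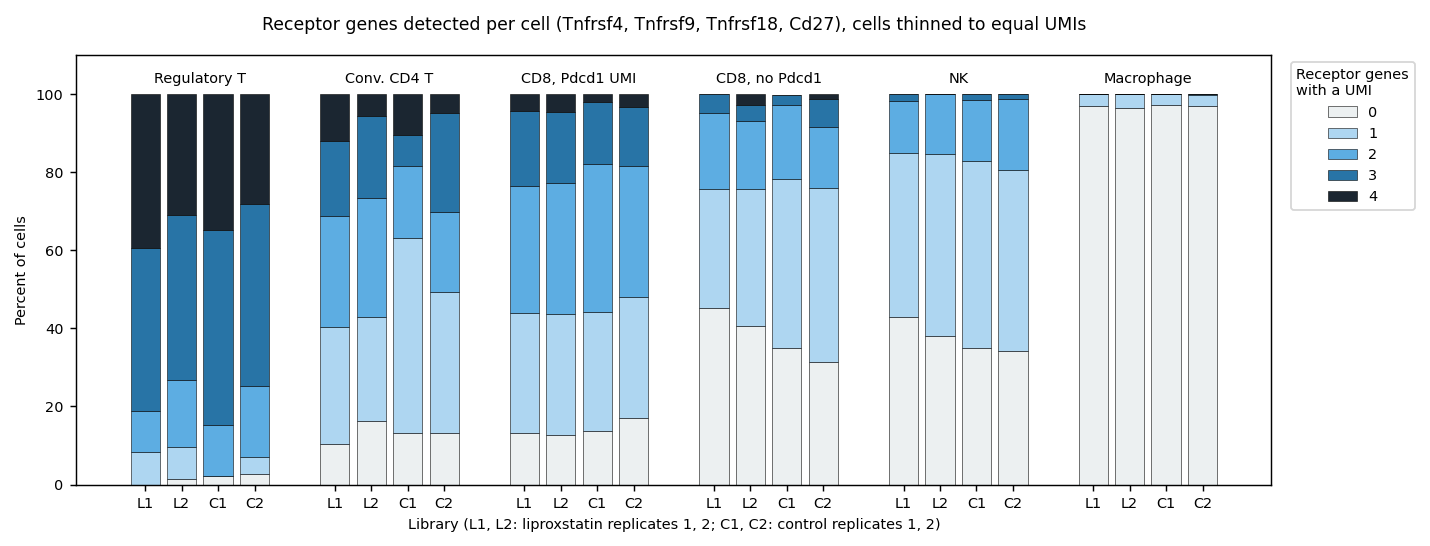
Percent of cells with a UMI of 0, 1, 2, 3 or 4 of the receptor genes after thinning to 2000 UMIs per cell, by class and library (L, liproxstatin; C, control). Dark shades fill 73.1% to 84.8% of regulatory T cells and almost none of NK cells and macrophages.

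The ligand genes were sparser, and no class led clearly for any of them. Tnfsf9 was on average highest in type 2 conventional dendritic cells, at 183 and 97.0 CPM in the liproxstatin libraries and 170.4 and 31.9 CPM in the control libraries. Migratory dendritic cells, the Ccr7-positive state in which dendritic cells leave for lymph nodes, had 52.3 and 64.5 CPM in the liproxstatin libraries and 224 and 23.3 CPM in the control libraries. In both classes control replicate 1 was far above control replicate 2, and the liproxstatin libraries did not separate from the control libraries. In migratory dendritic cells of control replicate 1, however, 24 and 23 of the 59 UMIs were in single cells. Without the 4 cells richest in Tnfsf9 in each library, that class had 29.5 and 27.1 CPM in the liproxstatin libraries and 22.6 and 6.33 CPM in the control libraries. Macrophages had only 27.4 and 21.9 CPM in the liproxstatin libraries and 28.5 and 16.8 CPM in the control libraries. As the largest class, and a deep one at medians of 22825 to 31781 UMIs, they held 79.6% and 81.1% of the Tnfsf9 UMIs in the liproxstatin libraries and 76.9% and 84.8% in the control libraries. In macrophages the gene was spread over many cells, with a UMI in 26.5% to 30.0% of them (3.05% to 4.52% after thinning). B cells had no UMI of it, but they numbered only 21 to 37 per library, at median depths of 4729 to 5241 UMIs.

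Tnfsf18 reached at most 4.55 CPM in any class and library. Macrophages held 107 and 54 of its 119 and 62 UMIs in the liproxstatin libraries and 48 and 61 of its 53 and 67 UMIs in the control libraries, or 87.1% to 91.0%. Its level there was 1.07 and 0.553 CPM in the liproxstatin libraries and 0.887 and 0.590 CPM in the control libraries, too few UMIs to rank the classes.

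CD8 T cells held 50% and 48.3% of the Cd70 UMIs of the liproxstatin libraries and 55.8% and 21.3% of those of the control libraries, and 41.1% and 24.0% of the Tnfsf4 UMIs of the liproxstatin libraries and 37.0% and 12% of those of the control libraries. These were spread thinly, with at most 5 UMIs of either gene in any CD8 T cell. In NK cells of control replicate 2 and in migratory dendritic cells of every library, by contrast, most Tnfsf4 UMIs came from a few cells. In NK cells Tnfsf4 had 9.50 and 15.2 CPM in the liproxstatin libraries and 7.99 and 87.2 CPM in the control libraries. The high value of control replicate 2 rested on 4 of its 233 NK cells, each with 20 or more Tnfsf4 UMIs, which held 352 of 379 UMIs. Without the 4 cells richest in Tnfsf4 in each library, the levels were 6.13 and 8.01 CPM in the liproxstatin libraries and 4.45 and 6.60 CPM in the control libraries. 3 of the 4 cells also held 129 of the 131 Cd70 UMIs of that class, all 4 had UMIs of Ncr1, Eomes and Tnfrsf9, 2 had Cd3e and 1 had Klrb1c, another NK marker. They were deep, with 37619 to 107272 UMIs each. No NK cell of the other 3 libraries reached 20 UMIs of either gene.

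In migratory dendritic cells, 20 to 29 per library, Tnfsf4 had 19.3 and 292 CPM in the liproxstatin libraries and 30.4 and 10.3 CPM in the control libraries. These levels rested on 7 and 104 UMIs in the liproxstatin libraries and 8 and 4 UMIs in the control libraries, in 3 or 4 cells of each. The 4 cells richest in Cd70 held 85.2% to 100% of its UMIs in this class. In liproxstatin replicate 2, 95 of the 104 UMIs came from 1 cell. That cell held 61030 UMIs, among them 96 of Tnfrsf9, 38 of Tnfrsf18 and 17 of Cd70, and it carried 165 of the 170 NK marker UMIs and 67 of the 74 T cell marker UMIs of the class in that library, beside 61 UMIs of 3 of the 6 migratory dendritic cell markers. Without it the class had 30.4 CPM of Tnfsf4, 148.9 CPM of Tnfrsf9, 40.6 CPM of Tnfrsf18 and 33.8 CPM of Cd70 in that library.

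**Figure D4:**
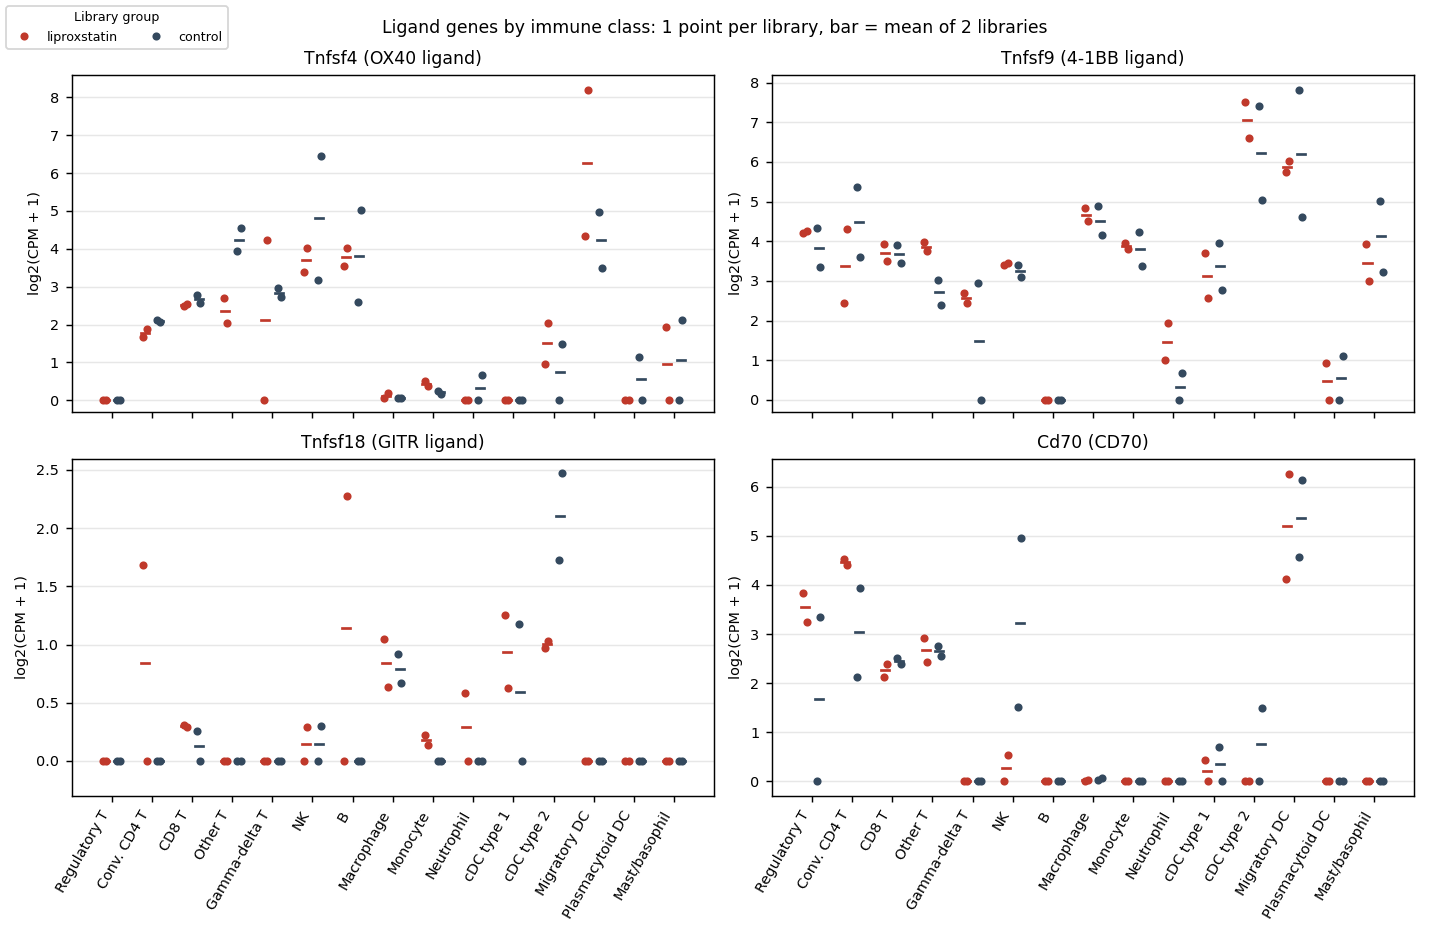
Levels of the 4 ligand genes by immune class, as log2(CPM + 1), with 1 point per library and a bar at the mean of the 2 libraries of a group (liproxstatin red, left; control dark, right). The NK point of control replicate 2 and the migratory dendritic cell point of liproxstatin replicate 2 for Tnfsf4 stand far above their partners, and no Tnfsf18 point exceeds 4.55 CPM.

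Migratory dendritic cells were set against type 1 and type 2 conventional dendritic cells of the same libraries, since maturing dendritic cells are a known source of these ligands. In this comparison 34.0% of 8843 genes passed and 15.1% did so upward (edgeR quasi-likelihood within libraries). 6 of the 8 genes passed the low-count filter, and Cd27 and Tnfsf18 did not. Tnfsf4 had 123 UMIs in migratory and 6 in conventional dendritic cells, and 95 of the 123 came from the 1 cell of liproxstatin replicate 2. Its log2 fold change was 7.05 ± 0.56 (adjusted p = 1.27e-08, edgeR) and was 5.73 (adjusted p = 4.21e-05) without that library. Cd70 had 66 UMIs in migratory and 4 in conventional dendritic cells, 17 of the 66 from the same cell. Its log2 fold change was 6.78 ± 0.58 (adjusted p = 3.52e-08, edgeR), and 6.21 (adjusted p = 3.84e-07) without that library.

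Receptor genes were higher in migratory dendritic cells as well. Tnfrsf9 had 242 and 393 CPM in migratory dendritic cells of the liproxstatin libraries and 148 and 344 CPM in those of the control libraries, against 4.57 and 6.78 CPM in conventional dendritic cells of the liproxstatin libraries and 7.76 and 13.7 CPM in those of the control libraries. The log2 fold change was 5.22 ± 0.25 (adjusted p = 2.08e-11), and 5.07 without liproxstatin replicate 2. Tnfrsf4 differed by 4.10 ± 0.46 (adjusted p = 1.17e-06) on 12 to 18 UMIs per library in migratory dendritic cells, and Tnfrsf18 by 1.26 ± 0.28 (adjusted p = 0.00190). Of the 50 Tnfrsf18 UMIs of the migratory class in liproxstatin replicate 2, 38 came from the same cell. Tnfsf9 differed by 0.91 ± 0.28 (adjusted p = 0.0189), but not past the threshold in DESeq2 (0.0588), with likely doublets kept (0.0886) or without control replicate 1 (0.234). T cell markers in the migratory class summed to 79.8 and 208 CPM in the liproxstatin libraries and 7.60 and 59.4 CPM in the control libraries, and NK cell markers to 38.5 and 476.7 CPM in the liproxstatin libraries and 34.2 and 33.6 CPM in the control libraries. Their part in the receptor levels was not tested.

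Of 25 TRAF and NF-kappaB signalling genes, 19 were higher in migratory dendritic cells and none lower, where 15.1% of all genes passed upward. The median log2 fold change was 1.59 against -0.13 over all genes. Birc2, a ubiquitin ligase of the TRAF complex (3.97 ± 0.19), Relb (3.47 ± 0.18), Traf1 (2.97 ± 0.13) and Rel (2.46 ± 0.15) had the smallest p. Of 10 tested other receptor genes 4 were higher and 3 lower, with Fas (3.46 ± 0.40), Cd40 (2.78 ± 0.18), Tnfrsf11a (2.15 ± 0.24) and Tnfrsf1b (2.12 ± 0.33) higher. Tnfsf11 was higher (6.11 ± 1.23) and Tnf fell by 1.76 ± 0.36 on the log2 scale.

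Liproxstatin was then compared with control in each of 14 classes that had at least 20 cells in every library. The 8 genes passed the low-count filter in 54 of 112 gene and class pairs: Tnfrsf9 and Tnfrsf18 in 11 classes each, Tnfsf9 in 10, Tnfrsf4 and Cd27 in 7 each, Tnfsf4 in 4, Cd70 in 3 and Tnfsf18 in 1. 1 pair passed an adjusted p of 0.05 in edgeR, Tnfrsf4 in CD8 T cells. Over all genes 0.41% of 108466 gene and class pairs passed, and in CD8 T cells 1.03% of 11644 genes, 0.721% upward. The share of all genes that passed was 1.76% in macrophages, 0.186% in regulatory T cells, 0.0346% in conventional CD4 T cells, 0.0115% in other T cells, 0.0598% in NK cells, 0.0737% in monocytes and 0.0674% in neutrophils. In dendritic cells it was 0.156% for type 1, 0.0143% for type 2, 0.157% for migratory and 0.0139% for plasmacytoid cells. 4 pairs (7.41%) had an unadjusted p under 0.05, against 8.23% of all gene and class pairs. The 2 libraries of each group did not overlap in 17 pairs, 8 higher and 9 lower under liproxstatin, which is 31.5% of pairs against 38.7% over all genes and classes.

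Tnfrsf4 had 205 and 226 CPM in CD8 T cells of liproxstatin replicates 1 and 2, and 143 and 157 CPM in those of control replicates 1 and 2. Both liproxstatin libraries lay above both control libraries. The means were 215 ± 15.1 CPM under liproxstatin and 149.9 ± 9.62 CPM in control (SD, n = 2 each), a log2 fold change of 0.52 ± 0.11 (SE) with an adjusted p of 0.0190 (edgeR). The share of CD8 T cells with a Tnfrsf4 UMI, thinned to 2000 UMIs, was 28.9% and 30.0% under liproxstatin and 20.1% and 23.2% in control, against 0.269% and 0.351% of NK cells under liproxstatin and 0.481% and 0.234% in control. Without thinning, the CD8 shares were 66.7% and 66.2% under liproxstatin and 55.2% and 62.3% in control, at median depths of 12108 and 10845 UMIs under liproxstatin and 14608 and 14413 UMIs in control.

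The call did not hold in all settings. The log2 fold change was 0.63 without liproxstatin replicate 1 (adjusted p = 0.184) and 0.42 without liproxstatin replicate 2 (0.332), 0.58 with equal numbers of cells per library (0.0571), and 0.53 in a fit of all classes together (1.0). Cells with a Mki67 or Top2a UMI made up 55.8% and 54.7% of CD8 T cells under liproxstatin and 61.5% and 61.8% in control, and among CD8 T cells with neither UMI, a subset chosen after seeing the data, the change was 0.43 (adjusted p = 0.153). Within Pdcd1-positive CD8 T cells it was 0.51 (adjusted p = 0.0271). Over all alternatives the adjusted p ran from 4.41e-04, without the low-count filter, to 1.0. Other genes moved with the group in CD8 T cells: Pdcd1 had 608 and 573 CPM under liproxstatin and 522 and 386 CPM in control, Ccr7, a homing receptor that also marks migratory dendritic cells, had 152 and 144 CPM under liproxstatin and 70.7 and 32.1 CPM in control, and Ly6c2 had 107 and 79.5 CPM under liproxstatin and 151 and 168 CPM in control. Their part in the Tnfrsf4 difference was not tested.

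The other receptor genes in CD8 T cells did not pass. Tnfrsf9 had 514 and 539 CPM under liproxstatin and 524 and 507 CPM in control, with the groups overlapping and a log2 fold change of 0.03 ± 0.11 (adjusted p = 0.952, edgeR). Tnfrsf18 had 296 and 325 CPM under liproxstatin and 245 and 286 CPM in control, which did not overlap, at 0.23 ± 0.11 (adjusted p = 0.492). Cd27 had 218 and 185 CPM under liproxstatin and 186 and 178 CPM in control, at 0.15 ± 0.11. A p that misses the threshold does not show that these levels were alike.

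In regulatory T cells, Tnfrsf4 was higher in both liproxstatin libraries than in both control libraries, at 0.24 ± 0.13 (adjusted p = 0.846, edgeR). Tnfrsf9 did not overlap between groups either, at 0.26 ± 0.14 (adjusted p = 0.842). Tnfrsf18 (-0.03 ± 0.13) and Cd27 (-0.15 ± 0.25) overlapped. In other T cells Tnfrsf4 had 343 and 477 CPM under liproxstatin and 278 and 239 CPM in control, at 0.67 ± 0.18 (adjusted p = 0.436, edgeR). Tnfsf4 had 5.49 and 3.11 CPM in other T cells under liproxstatin and 14.3 and 22.5 CPM in control, at -2.14 ± 0.44 (adjusted p = 0.187, edgeR), and 26 of the 37 UMIs of control replicate 2 were in 1 cell. Tnfsf9 had 14.8 and 12.4 CPM in other T cells under liproxstatin and 7.16 and 4.25 CPM in control, at 1.38 ± 0.45 (adjusted p = 0.688, edgeR). None of these 3 genes overlapped between groups, and neither did Cd27, which was lower (-0.19 ± 0.16). Over all genes and classes 38.7% of pairs did not overlap, so the lack of overlap here and in regulatory T cells carries little weight. Other genes of this mixed class moved with the group too. Ncr1 had 81.9 and 89.5 CPM in other T cells under liproxstatin and 152 and 166 CPM in control. Pdcd1 had 343 and 249 CPM under liproxstatin and 189 and 143 CPM in control, and Ly6c2 had 216 and 314 CPM under liproxstatin and 365 and 469 CPM in control. Their part in the 3 differences was not tested.

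Whether the treatment effect differed between regulatory and CD8 T cells was tested by an interaction term. 7 of the 8 genes passed the low-count filter and 6 gave a value, since Tnfsf4 had no UMI in regulatory T cells. None of these 6 passed, and 0.0293% of 10225 genes did, with 435 at an unadjusted p under 0.05 (edgeR). The difference in log2 fold change, regulatory minus CD8 T cells, was -0.26 ± 0.15 for Tnfrsf4 and 0.24 ± 0.15 for Tnfrsf9, so a difference between the 2 classes in the Tnfrsf4 effect was not shown. DESeq2 was not run for this test.

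In the remaining classes none of the 8 genes passed. In NK cells Tnfrsf18 had 144.8 and 147 CPM under liproxstatin and 149.8 and 203 CPM in control, at -0.26 ± 0.14 (adjusted p = 0.776, edgeR). Tnfrsf9 in NK cells was at -0.12 ± 0.32. In macrophages, Tnfsf9 was at 0.16 ± 0.37 and Tnfrsf9 at 0.40 ± 0.23 (adjusted p = 0.504). Tnfrsf4 was at 0.75 ± 0.39 in macrophages, where it averaged 1.3 CPM under liproxstatin and 0.809 CPM in control. It was at 0.20 ± 0.21 in conventional CD4 T cells, 0.14 ± 0.64 in monocytes and -0.25 ± 0.40 in migratory dendritic cells. In monocytes Tnfrsf9 had 29.3 and 27.3 CPM under liproxstatin and 32.6 and 37.5 CPM in control, at -0.23 ± 0.13 (adjusted p = 0.695). Neutrophils, whose ferroptosis the series title names, had 5.93 and 9.35 CPM of Tnfrsf9 under liproxstatin and 2.74 and 14.7 CPM in control, and no other of the 8 genes passed the filter there. The log2 fold change was -0.68 ± 0.55. Tnfsf4 was at 2.94 ± 1.54 in migratory dendritic cells and at -1.99 ± 1.53 in NK cells, where most of its UMIs in 1 library came from the few ligand-rich cells already described.

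**Figure D5:**
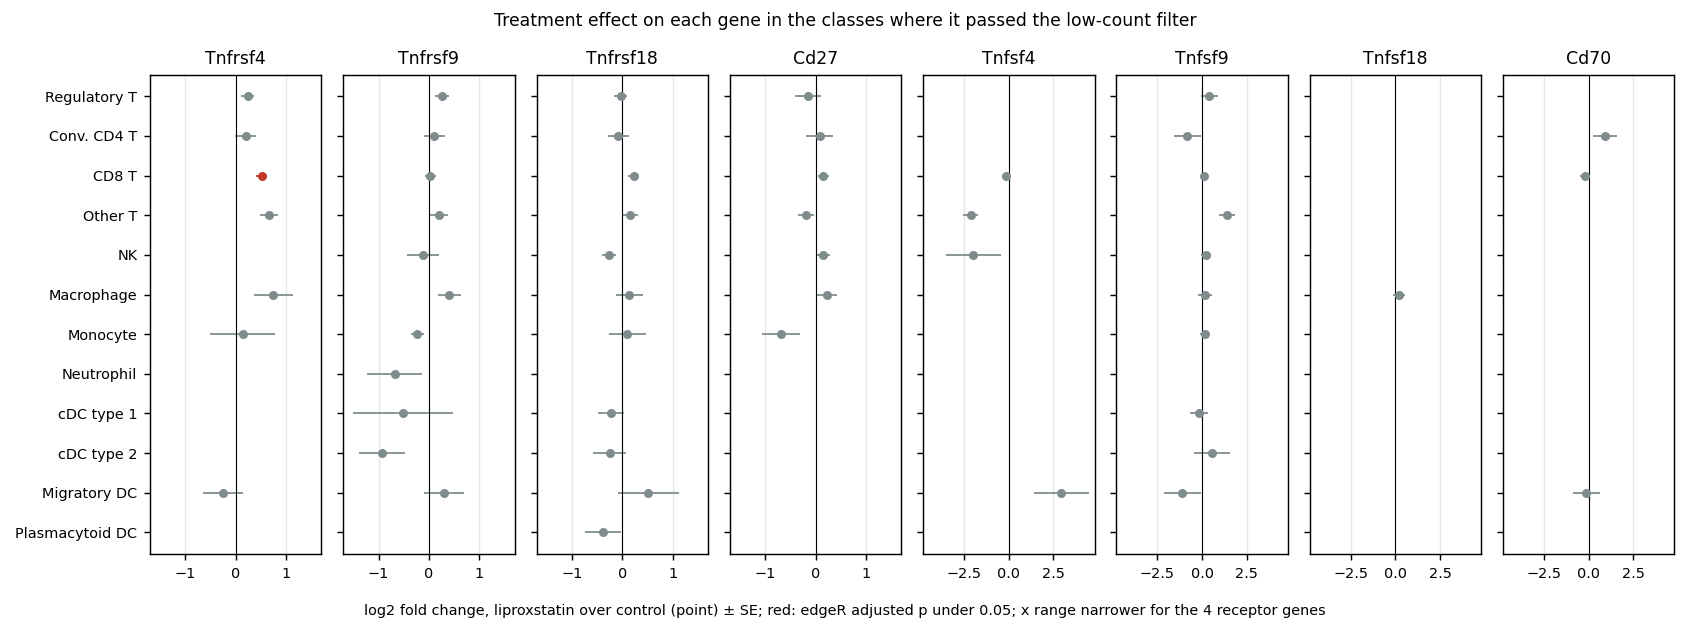
Log2 fold change, liproxstatin over control, with its SE for each gene in each class where it passed the low-count filter (the receptor panels have a narrower axis). Tnfrsf4 in CD8 T cells, at 0.52 ± 0.11, is the point drawn in red for passing an adjusted p of 0.05, and the ligand genes carry the widest SEs.

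Of the related genes, none of 98 tested pairs of other TNF receptor genes and classes passed, 1 of 85 pairs of other ligand genes did, and none of 311 pairs of TRAF and NF-kappaB signalling genes did (edgeR). The 1 was Lta, lymphotoxin alpha, in CD8 T cells, with 16.7 and 15.4 CPM under liproxstatin and 11.2 and 8.59 CPM in control, a log2 fold change of 0.74 ± 0.18 (adjusted p = 0.0388). The medians of the 3 lists in CD8 T cells were 0.25 for other receptors, 0.10 for other ligands and 0.12 for signalling genes, against -0.01 over all genes.

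Across the 15 classes, the genes most like each receptor in log2(CPM + 1) were taken from 10422 genes. The classes share libraries and depth, so the Pearson correlations are a description. Tnfrsf4 was most like Penk, the enkephalin precursor (0.964), Ikzf4, the transcription factor Eos of regulatory T cells (0.959), and F730043M19Rik (0.952). Tnfrsf9 was most like Ccdc184 (0.946), Dock9 (0.922) and Mir155hg, the host gene of miR-155 (0.919), and Tnfrsf18 most like Gmcl1 (0.935), A930024E05Rik (0.933) and Klc3 (0.926). Cd27 was most like Lck, the kinase of T cell receptor signalling (0.980), Gimap7 (0.968) and Chst2 (0.967). Among the ligands the likeness was weaker for Tnfsf4 (Rras2, 0.820) and Tnfsf9 (Trip10, 0.867) than for Cd70 (Mex3b, 0.925). Cd70 had no UMI in B cells, gamma-delta T cells, monocytes, neutrophils, plasmacytoid dendritic cells, or mast cells and basophils. Its correlations therefore rest in part on absence. Between the 8 genes themselves the highest values were 0.848 for Tnfrsf18 with Cd27, 0.810 for Tnfrsf9 with Tnfrsf18 and 0.785 for Tnfrsf4 with Cd70, and a receptor and its own ligand gave 0.147 for Tnfrsf4 with Tnfsf4, 0.418 for Tnfrsf9 with Tnfsf9, -0.220 for Tnfrsf18 with Tnfsf18 and 0.388 for Cd27 with Cd70.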

How the data were processed

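The authors deposited counts: whole numbers of UMIs per gene and barcode, 1 matrix per library, not normalized, per the file headers. Cell Ranger 6.1.1 wrote them, per the file headers. The submitters' processing notes instead list version 4, with build mm10, a difference that could not be resolved. Replicate numbers are those of the labels, which differ from numbers in the file names. Gene positions came from GENCODE M21 (32235 of 32285 identifiers matched). Members and lists were chosen with earlier results of these data known, and gate thresholds were set after the data had been seen.

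Cells with at least 200 genes and under 15% mitochondrial UMIs were kept. The highest Scrublet scores (scanpy 1.11.5), 0.8% per 1000 barcodes, were removed as likely doublets. Cells with at least 1000 UMIs were gated if at least 3 markers of a lineage were detected, the score (each marker scaled to its 99th percentile) was at least 0.25 and no other lineage exceeded 0.8 of it. Macrophages and monocytes were not set against each other. T cells were split by Cd8a or Cd8b1, Cd4, Foxp3 and gamma-delta markers, and the 8 genes entered neither gates nor clusters. UMIs were summed per library and class and tested with edgeR 4.0.16 (R 4.3.3; filterByExpr, TMM, robust quasi-likelihood F test, Benjamini-Hochberg over all genes of a class, 0.05). The SE is the log2 fold change over the square root of F. Genes named beside the 8 are, per list and class, at most the 4 of lowest adjusted p, and for likeness the 3 highest among genes with at least 10 CPM in some class. The fits were tested on simulated counts. DESeq2 1.42.0, other scaling, no filter, 1 fit for all classes, doublets kept, stricter gates, clusters (python-igraph 0.11.9), equal cells, a replicate block and leaving out each library were tried; CD8 T cells without cycling genes and with Pdcd1 were added after seeing the data. Counting intervals and limits at 3 UMIs cover counting error only.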

Additional observations from a re-analysis of the deposited data

How the results depend on the processing

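None of the 888 values of log2 fold changes of the 8 genes under alternatives turned a called direction, and 73 differed in sign where neither was called. Under liproxstatin against control, the count of the 8 genes called (1 of 54 pairs) was 4 without the low-count filter and 0 with equal cells or all classes in 1 fit, and ran from 0 to 9 when 1 library was left out. The 9 were without control replicate 1. All gene and class pairs called (445) were 2669 without the filter, 710.0 in DESeq2, 985 with the replicate block, 261 with equal cells and 143 in 1 fit, and 498 to 3200.0 with 1 library left out. Related genes called (1) were 35 without the filter, 4 in DESeq2, 16 with the block, 2 with doublets kept, 3 with stricter gates, 3 with clusters, 0 with equal cells and 2 in 1 fit, and 3 to 59 with 1 library left out. Leaving out 1 library leaves a lone library in a group that is assumed to vary like the others, and the cause of these swings was not tested. The labels do not say that numbers pair libraries, and same-numbered libraries correlated at -0.045 to 0.224 in their deviations, so the replicate block shares only a number. Under it Tnfrsf4 in CD8 T cells kept 0.52 (adjusted p = 0.001, edgeR). Without control replicate 1, log2 fold changes that passed were those of Tnfsf9 (0.61) and Tnfrsf4 (1.04) in macrophages, Tnfrsf9 (-0.45), Tnfrsf18 (-0.44) and Tnfsf4 (-2.80) in NK cells, Tnfsf9 in type 2 dendritic cells (2.17) Tnfsf4 in other T cells (-2.34) and Tnfrsf4 in CD8 T cells (0.48), and Cd70 in NK cells, which the filter otherwise left out. Without liproxstatin replicate 1, those of Tnfsf4 in migratory dendritic cells (3.84) and of Tnfrsf4 (0.90) and Tnfsf4 (-2.60) in other T cells passed. Tnfrsf9 in macrophages passed without control replicate 2 (0.56) and without the filter (0.40), and in other T cells Tnfrsf4 (0.69) and Tnfsf4 (-2.12) passed without the filter. Between Pdcd1-positive and Pdcd1-negative CD8 T cells, DESeq2 called 2 of the 8 genes and 1346 genes, against 4 and 2062, and 2 to 4 of the 8 with 1 library left out. Between regulatory and conventional CD4 T cells DESeq2 called 395 genes against 858, and the 4 receptor genes were called in every alternative run. The difference of regulatory and CD8 T cells gave 8 genes with stricter gates against 3, and 2 to 26 with 1 library left out. Of the levels in CPM, 30 moved by more than 1 SD between libraries: 21 of 120 with doublets kept, all upward, and 9 of 120 with stricter gates. Depth limits the ligands: Tnfsf18 had 53 to 119 and Cd70 43 to 239 UMIs in a library. Clusters gave no separate conventional CD4 T cells or type 2 dendritic cells, and stricter gates left under 20 migratory dendritic cells in a library, so those were not run.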
